A study of Mus musculus with 2 samples.

Results

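Cadherins and protocadherins are cell-surface proteins that hold neighbouring cells together through extracellular cadherin repeats, which need calcium. The genes described here are those on the array whose accession is paired with a mouse symbol that begins with Cdh or Pcdh followed by digits and lower-case letters, leaving out 1 gene with a symbol of that form. This took 73 genes and 94 probes out of 32103 genes and 39429 probes on the array, and 57 of the 73 genes were bright enough to be tested. They were compared in ureters of E14.5 mouse embryos of the NMRI strain, between controls of genotype Tbx18(+/+);Tbx2(fl/?);Tbx3(fl/?) and embryos labelled knockout. The latter are Tbx18(cre/+) and have both copies floxed at each of the other loci, Tbx2(fl/fl) and Tbx3(fl/fl). The Tbx18 locus drives Cre in the ureteric mesenchyme, where it is meant to remove the transcription factors Tbx2 and Tbx3. The controls carry a floxed allele of each gene and no Cre, and their other alleles are left unspecified, so the labelled knockouts also differ from them in 1 allele of Tbx18. Total RNA of 1 labelled knockout and 1 control was hybridised to each of 2 two-colour arrays, a female pair and a male pair. The dyes were swapped between the arrays, and a difference by sex and one by dye cannot be told apart. No source used here says how many embryos stand behind each RNA, and nothing says that the pairs came from separate litters. The p-values therefore rest only on spread between these 2 pairs, which may be partly technical. For each gene, the test used below combines its own spread with that pooled across all genes tested.

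Classical cadherins of type I, such as E-cadherin, N-cadherin and P-cadherin, and of type II bind cells of like kind to each other and anchor the actin cytoskeleton through catenins bound to their cytoplasmic tails. In the ureter, E-cadherin marks the urothelium, while N-cadherin and the type II protein Cdh11 are typical of mesenchyme. The clustered protocadherins are encoded side by side in an alpha, a beta and a gamma array of genes, are expressed in varying combinations in single cells, and are best known for the self-recognition of neurons. The non-clustered protocadherins of the delta-1 and delta-2 classes lie scattered in the genome and act mainly in cell sorting and migration.

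Across all genes, 3.68% passed the threshold in limma's moderated test (Benjamini-Hochberg adjusted p under 0.05), with 1.87% higher and 1.81% lower in the labelled knockout. The check of the targeted genes went both ways. Tbx3 had a log2 ratio of labelled knockout over control of -1.09 ± 0.10 (SD, n = 2 pairs), whereas Tbx2 had one of 0.86 ± 0.12, which goes against the label at this probe. No source used here places either probe relative to the deleted exons. Directions below are therefore those of the libraries labelled knockout. Between 64.3% and 71.6% of spots were well above background in each channel, and 0 spots were saturated.

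The 4 RNAs are whole ureters, in which fewer cells of a type and less RNA per cell cannot be told apart. All 7 measured of 8 smooth muscle markers were lower in the labelled knockout, with a median log2 ratio of -3.04, and their summed level was 17.27 and 17.73 on the log2 scale in the controls against 14.49 and 14.53 in the labelled knockouts. Of 15 measured of 16 markers of neurons and glia, 3 were higher and 0 lower, with a median of 0.27 and a summed level of 15.67 and 15.68 in the controls against 15.74 and 15.68. For the endothelium the 8 markers had a median of 0.14 with 0 called, for immune cells the 6 markers had 0.19 with 0 called, and for the urothelium the 16 markers had -0.079 with 0 called. At an unadjusted p under 0.05, limma passed 9 neural and glial markers as higher and 0 as lower, or 60% against 14.1% of all genes tested. At the same threshold it passed 2 endothelial (25%), 4 immune (66.7%) and 4 urothelial (25%) markers. Of 9 ureteric mesenchyme markers, 3 were higher and 2 lower (median -0.065), and 5 of 8 nephron markers and 5 of 7 skeletal muscle markers were measured with 0 called (medians 0.23 and -0.15). At an unadjusted p under 0.05, limma passed 3 mesenchyme markers as higher and 4 as lower (77.8%). It also passed 1 nephron (20%) and 2 skeletal muscle (40%) markers. No measured marker was at 0, since array values have no true zero, and the part of these markers in the results on cadherins was not tested.

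Among the 57 tested genes, 1 was higher and 1 was lower. Pcdh9, a delta-1 protocadherin, fell by 0.75 on the log2 scale. Cdh2, which encodes N-cadherin, rose by 0.41. The share called was 3.51% of the 57 genes against 3.68% of all genes tested, so the number of calls was near the background. Without the adjustment, limma gave a p under 0.05 for 9 higher and 5 lower genes, 24.6% of the 57 against 14.1% of all genes tested. The 9 include Cdhr5, whose signal was well above background on both arrays only in the knockout channel.

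Sequence upstream of the start was listed by RefSeq (GRCm38.p6) for 26 of the 73 genes. It is shown for Pcdh9, the gene with the largest fall, and for Cdh9, the gene just short of the threshold among those that were higher, as the 250 bases before the transcript start, 5′ to 3′ on the gene's own strand, with a CCAAT box on either strand in capitals. The Pcdh9 stretch is chr14:93890680-93890929 on the minus strand and the Cdh9 stretch chr15:16728665-16728914 on the plus strand.
Pcdh9: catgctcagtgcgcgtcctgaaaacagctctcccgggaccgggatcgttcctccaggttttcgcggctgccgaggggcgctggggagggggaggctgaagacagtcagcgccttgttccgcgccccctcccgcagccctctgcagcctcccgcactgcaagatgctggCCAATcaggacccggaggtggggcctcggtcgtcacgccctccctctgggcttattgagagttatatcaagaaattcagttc
Cdh9: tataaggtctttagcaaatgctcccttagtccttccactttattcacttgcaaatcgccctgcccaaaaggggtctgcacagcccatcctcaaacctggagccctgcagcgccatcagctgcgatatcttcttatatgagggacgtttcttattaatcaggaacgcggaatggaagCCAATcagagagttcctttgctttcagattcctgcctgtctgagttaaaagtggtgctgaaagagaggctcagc

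Both stretches hold 1 CCAAT box, starting 82 bases before the start for Pcdh9 and 74 bases before it for Cdh9. Over the same 250 bases before each start listed, CCAAT was found in 33.8% of 32851 promoters. It was in 11 of the 20 tested genes with a listed promoter. T-box proteins bind a half-site spelled GGTGTGA. Searched on both strands of the same stretches, these letters were in 3.33% of all promoters and in 0 of the 20 tested genes. They were in 1 of the 26 genes in all, Cdh7, whose probe was too dim to test. The search covers letters only and says nothing of binding. RefSeq lists a second start for Pcdh9 10 bases away.

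The classical cadherins of type I lay above 0. All 5 were tested, with 1 higher and 0 lower, or 20% called against 3.68% of all genes tested. All 5 had a log2 ratio above 0 in both pairs, against 27.6% of all genes. Their median was 0.20, with 0.24 in females and 0.18 in males, beside a median over all genes of -0.0021.

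Cdh2 (N-cadherin), the main classical cadherin of mesenchymal and neural cells, had log2 levels of 13.57 in the female control and 13.53 in the male control, and of 13.87 and 14.05 in the labelled knockouts. Both knockout RNAs lay above both controls. The log2 ratio was 0.41 ± 0.15 (SD, n = 2 pairs), a 1.33-fold rise, with 0.30 in females and 0.51 in males (adjusted p = 0.0466). The second probe of Cdh2 was also higher in both pairs, at 0.16 and 0.35, but did not pass when probes were tested one by one (adjusted p = 0.175). The call of Cdh2 was lost under 4 of 13 alternative settings, with adjusted p-values from 0.0194 to 0.213 over all 13 and log2 ratios from 0.33 to 0.43. One of the 3 neural and glial markers that passed, the glial precursor gene Fabp7, had a log2 ratio of 0.71 ± 0.023 in the same RNAs, and the part of neural cells in the Cdh2 value was not tested.

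The other type I genes did not pass. Cdh4, which encodes R-cadherin, had log2 levels of 10.62 and 10.22 in the female and male control and of 10.91 and 10.41 in the labelled knockouts, so each knockout was above its own control while the groups overlapped. Its log2 ratio was 0.24 ± 0.064 (adjusted p = 0.157), and its 2 other probes gave 0.23 and 0.12. For Cdh15, the M-cadherin of muscle precursors, the ratio was 0.20 ± 0.066 (adjusted p = 0.243). Cdh3, the P-cadherin of basal epithelial cells, was at 12.44 in both controls and at 12.53 and 12.61 in the labelled knockouts, a ratio of 0.13 ± 0.060 (adjusted p = 0.486). These values do not overlap between the groups, but the difference is small.

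Cdh1, the E-cadherin of the urothelium, had log2 levels of 13.77 in the female control, 13.85 in the female knockout, 13.09 in the male control and 13.10 in the male knockout. The pairs stood further apart than the genotypes, and the ratio was 0.048 ± 0.054 (adjusted p = 0.911). The 16 urothelial markers had a median of -0.079, with single ratios between -0.29 and 0.27. Limma gave an unadjusted p under 0.05 for 1 higher and 3 lower, 25% of the 16 against 14.1% of all genes tested.

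Of 12 type II classical cadherins on the array, 10 were tested, with 0 called and a median log2 ratio of 0.061 (0.033 in females and 0.091 in males). At an unadjusted p under 0.05 limma passed 3 of them, each higher, or 30% against 14.1% of all genes tested. In both pairs 6 were above 0 and 2 below, against 27.6% and 28.2% of all genes.

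Cdh9, a type II cadherin known from kidney and brain, came closest to the threshold. It had log2 levels of 8.48 and 8.50 in the controls and of 8.76 and 8.92 in the labelled knockouts, so the groups did not overlap. Its ratio was 0.35 ± 0.10 (adjusted p = 0.0565). Cdh19, a marker of Schwann cell precursors, was at 7.28 and 7.47 in the controls and at 7.44 and 7.77 in the labelled knockouts. The ratio was 0.23 ± 0.093 (adjusted p = 0.186), and Sox10, the master regulator of that lineage, had 0.15 ± 0.15 in the same RNAs. The Cdh19 ratio became 0.41 with the processed signals and 0.47 with the deposited values, again without passing (adjusted p = 0.120 and 0.0951).

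Cdh6, which is found in nephron progenitors, had a ratio of 0.065 in females and 0.39 in males (mean 0.23 ± 0.23, adjusted p = 0.338), and its second probe had 0.11 and 0.13. Of the 5 measured nephron markers, Six2 had 1.11, Wt1 0.79 and Pax8 0.17 in the male pair, while Cited1 had -0.041 and Lhx1 -0.062. In the female pair the same 5 had -0.34, -0.032, 0.28, -0.071 and 0.062. Their part in the Cdh6 value was not tested. Cdh11, the OB-cadherin of mesenchyme, had log2 levels of 14.85 and 15.02 in the controls and of 15.11 and 15.06 in the labelled knockouts. The ratio of 0.15 ± 0.16 did not pass (adjusted p = 0.519), and a second probe gave 0.20 ± 0.0092. The 6 other tested type II genes had ratios from -0.11 to 0.067.

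Cdh6 and Cdh9 are neighbours on chromosome 15, where Cdh10, Cdh12 and Cdh18 follow in the RefSeq order. Along this row the ratios were 0.23, 0.35, 0.067, 0.055 and -0.11. The genes that share a neighbourhood thus lay on both sides of 0.

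**Figure D1:**
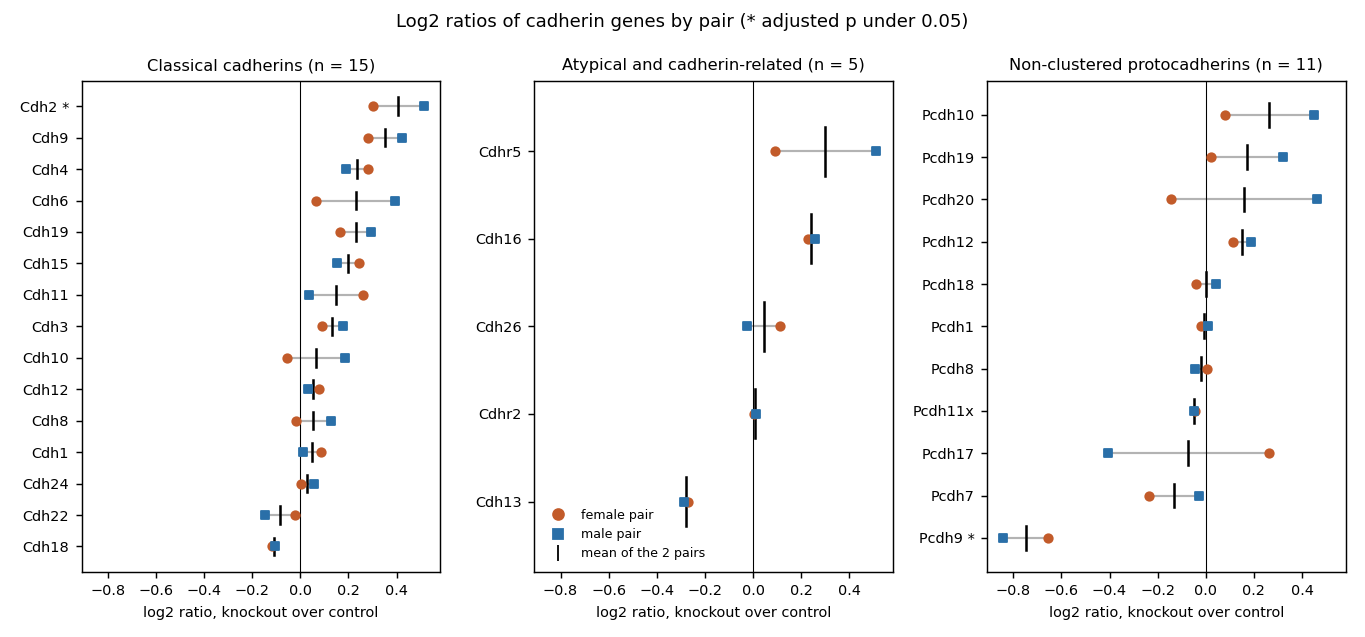
Log2 ratios of labelled knockout over control (x axis) for the tested classical cadherins, atypical cadherins and non-clustered protocadherins (1 gene per line), with circles for the female pair, squares for the male pair and a bar for their mean. Cdh2 at 0.41 and Pcdh9 at -0.75, both starred, passed the threshold, and 13 of the 15 classical cadherins have a mean above 0.

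Of 9 atypical and cadherin-related genes on the array, 5 were tested and 0 were called, with a median log2 ratio of 0.044. At an unadjusted p under 0.05 limma passed 2 higher and 1 lower, or 60% of the 5 against 14.1% of all genes tested. Of the 2 higher, Cdhr5 was kept only through the knockout channel, so its place in this count depends on that filter. Their values spread to both sides.

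Cdh13, the T-cadherin that is held to the membrane by a lipid anchor and is known from vessels and smooth muscle, was the lowest. It had log2 levels of 9.71 and 9.60 in the controls and of 9.44 and 9.32 in the labelled knockouts, without overlap. The ratio was -0.28 ± 0.012 (adjusted p = 0.0910), next to a median of -3.04 for the smooth muscle markers and of 0.14 for the endothelial ones.

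Cdh16, the kidney-specific Ksp-cadherin of tubular epithelium, was at 14.96 and 14.88 in the controls and at 15.19 and 15.13 in the labelled knockouts, again without overlap. Its ratio was 0.24 ± 0.020 (adjusted p = 0.136). The 5 measured nephron markers had mean ratios from -0.056 to 0.38. Cdhr5, a cadherin of brush borders, had 0.092 in females and 0.51 in males (mean 0.30 ± 0.29, adjusted p = 0.259), and its control signal was well above background on 1 of 2 arrays. The mean became 0.77 with the scanner software's processed signals and 0.61 with the deposited values (adjusted p = 0.228 and 0.147, not past the threshold).

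The clustered protocadherins lay mostly below 0. Of 35 on the array 26 were tested, and 0 were called. Limma gave an unadjusted p under 0.05 for 0 higher and 3 lower, 11.5% of the 26 against 14.1% of all genes tested. Their median log2 ratio was -0.096, with -0.087 in females and -0.076 in males. In both pairs 17 of 26 were below 0, or 65.4% against 28.2% of all genes, and 3 were above 0, or 11.5% against 27.6%. These genes are neighbours with similar sequences, and probes for near-identical copies may pick up each other's RNA, so the 26 values are not independent of each other.

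Most of these belong to the beta cluster, whose members are genes of 1 exon each. Of 22 on the array 21 were tested, and 19 of the 21 had a mean ratio below 0. The beta median was -0.11, with -0.090 in females and -0.12 in males. In 11 of the 21 genes both knockout levels lay below both control levels, or 52.4% against 17.7% of all genes, and in 1 gene both lay above, or 4.76% against 17.8%. The single ratios were small, between -0.30 and 0.061.

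Pcdhb10 had the lowest ratio. Its log2 levels were 9.62 and 9.55 in the controls and 9.34 and 9.23 in the labelled knockouts, a ratio of -0.30 ± 0.032 (adjusted p = 0.0714). Pcdhb4 was at 9.03 and 8.94 in the controls and at 8.73 and 8.67 in the labelled knockouts, a ratio of -0.28 ± 0.022 (adjusted p = 0.0859). In both genes the pairs gave close ratios and the groups did not overlap. Pcdhb7 behaved differently in the pairs, with levels of 11.60 and 11.62 in the female control and knockout and of 11.69 and 11.27 in the male ones. Its ratio of -0.20 ± 0.31 did not pass (adjusted p = 0.518).

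The 2 beta genes with a mean above 0 were Pcdhb2, at 0.041 ± 0.023, and Pcdhb16, at 0.061 ± 0.055, which are named here because their values set them apart. The control signal of Pcdhb2 was well above background on 1 of 2 arrays, so it was kept through the knockout channel. Along the chromosome, the lowest means lay at Pcdhb4, at Pcdhb7 and at Pcdhb10, with genes nearer to 0 between them. From Pcdhb17 to Pcdhb22, at the end of the row, 6 genes in sequence had means between -0.15 and -0.11.

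In the alpha cluster 2 of 7 genes were tested, with 0 called. Pcdhac2 had levels of 9.66 and 9.71 in the controls and of 9.57 and 9.62 in the labelled knockouts, a ratio of -0.088 ± 0.0046 (adjusted p = 0.716), but its second and dimmer probe gave 0.065. Pcdha8 had -0.054 ± 0.044 (adjusted p = 0.891). In the gamma cluster 3 of 6 genes were tested, with 0 called and a median of 0.0064 (-0.081 in females and 0.094 in males). At an unadjusted p under 0.05, limma passed 0 alpha and 0 gamma genes.

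Pcdhga9 had the brightest of the gamma probes, at 15.91 and 15.61 in the controls and 15.72 and 15.78 in the labelled knockouts. Its ratio was -0.0100 ± 0.25 (adjusted p = 0.993), with the pairs on opposite sides of 0, and its second probe gave 0.14. Alpha genes share their last exons, as do gamma genes, so a probe there would count several genes together. No source used here places these probes. Pcdhga1 had 0.11 ± 0.14 (adjusted p = 0.691) and Pcdhga5 0.0064 ± 0.12 (adjusted p = 0.993).

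**Figure D2:**
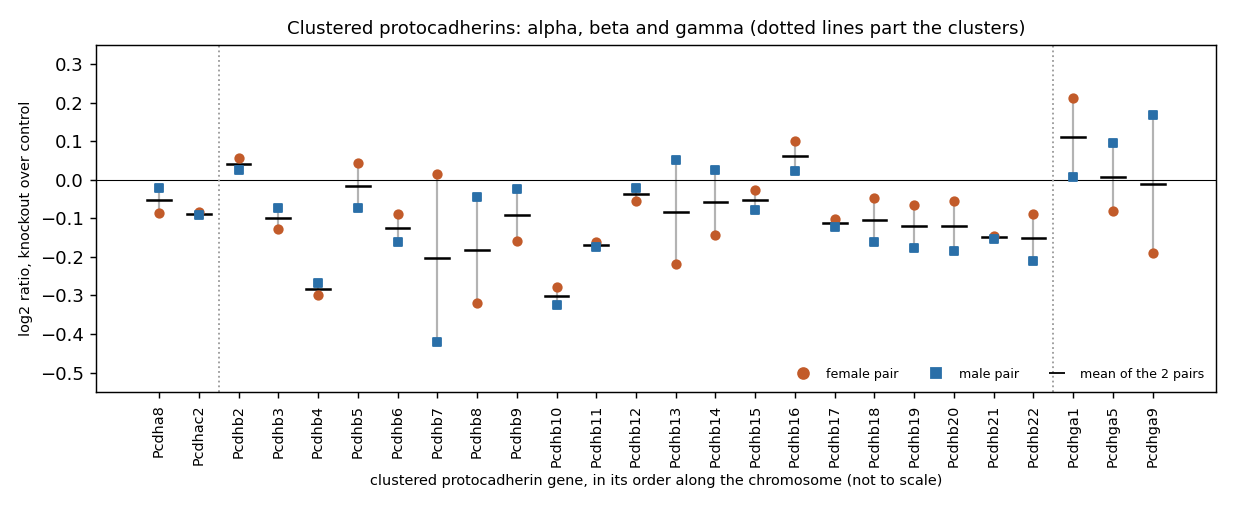
Log2 ratios of labelled knockout over control (y axis) of the 26 tested clustered protocadherins in their order along the chromosome, with circles for the female pair, squares for the male pair and a bar for their mean. Of the 21 beta genes between the dotted lines, 19 have a mean below 0, the lowest being -0.30 for Pcdhb10.

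Of 12 non-clustered protocadherins on the array 11 were tested, with 0 higher and 1 lower, or 9.09% called against 3.68% of all genes tested. The median of the 11 was -0.0061, which became 0.027 with median centring of the arrays in place of loess. The median over all genes moved from -0.0021 to 0.024 with the same change. In both pairs 3 were above 0 and 3 below, or 27.3% each, close to the 27.6% and 28.2% of all genes.

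All 4 delta-1 genes had a mean ratio below 0 (median -0.090), though for Pcdh1 at -0.0061 ± 0.022 the sign changed under 1 of 13 alternatives. Pcdh9, which is known best from developing brain, stood apart from the rest of the group. Its brightest probe had log2 levels of 10.89 in the female control and 11.07 in the male control, and of 10.23 in each labelled knockout. The groups were separated by more than the difference between the controls. The ratio was -0.75 ± 0.13 (SD, n = 2 pairs, adjusted p = 0.00461), a 1.68-fold fall, with -0.66 in females and -0.84 in males.

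Pcdh9 was measured by 2 further probes. The second went from 9.33 to 8.68 in females and from 9.54 to 8.93 in males, and the third from 7.98 to 7.49 and from 7.93 to 7.59. When probes were tested one by one, all 3 passed, with ratios of -0.75, -0.63 and -0.41 and adjusted p-values of 0.00374, 0.00438 and 0.0320. The third is listed under a different transcript accession than the other two. Across 13 alternatives the Pcdh9 ratio stayed between -0.82 and -0.60, and the call was lost under 1 of them, the deposited value table (adjusted p = 0.0555). The smooth muscle markers fell in the same RNAs, and their part in the Pcdh9 value was not tested.

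The remaining delta-1 genes did not pass. Pcdh7 had levels of 10.95 and 10.83 in the controls and of 10.72 and 10.81 in the labelled knockouts, a ratio of -0.13 ± 0.15 (adjusted p = 0.581), and its 2 other probes gave -0.071 and 0.053. Pcdh11x had -0.049 ± 0.0027 (adjusted p = 0.904) at levels between 7.10 and 7.20, where its control signal was well above background on 1 of 2 arrays.

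**Figure D3:**
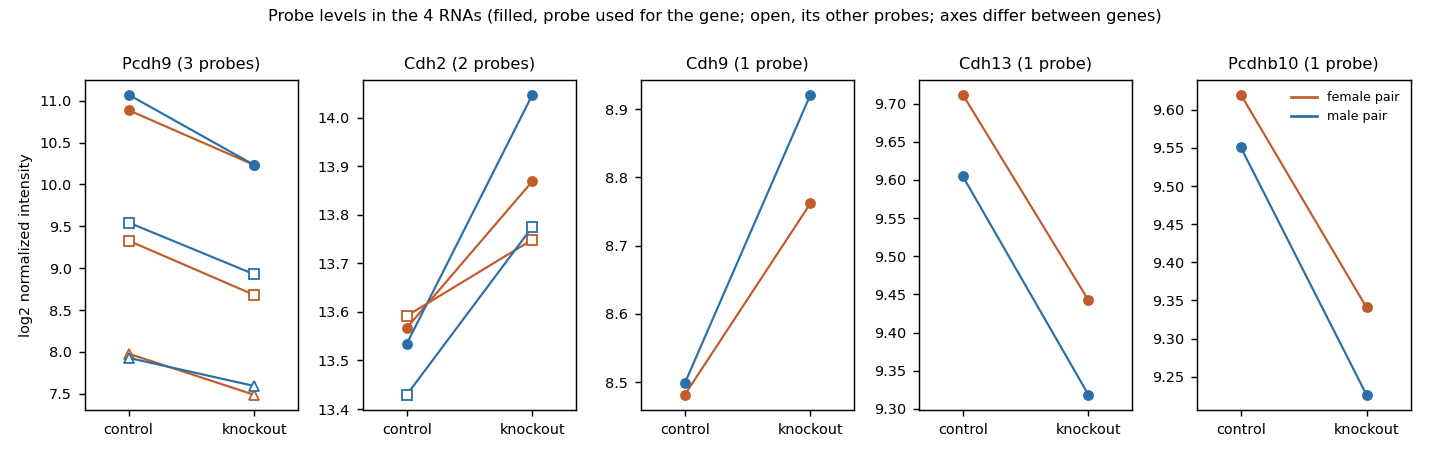
Log2 normalized intensity (y axis, on a scale of its own for each gene) in control and labelled knockout RNA for Pcdh9, Cdh2, Cdh9, Cdh13 and Pcdhb10, with lines that join the RNAs of a pair and open symbols for further probes of a gene. All 3 Pcdh9 probes go down in both pairs, the brightest from 10.89 to 10.23 and from 11.07 to 10.23, and both Cdh2 probes lie higher in each labelled knockout than in its control.

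Of 5 delta-2 genes, 0 were called. Limma passed 1 at an unadjusted p under 0.05, or 20% against 14.1% of all genes tested. The median was 0.00057, and its sign changed with the setting. Pcdh10, a delta-2 protocadherin of neurons and mesoderm, had levels of 8.67 and 8.48 in the controls and of 8.75 and 8.93 in the labelled knockouts, a ratio of 0.26 ± 0.26 (adjusted p = 0.293). Pcdh19 was at 12.26 and 12.04 in the controls and at 12.28 and 12.36 in the labelled knockouts, a ratio of 0.17 ± 0.21 (adjusted p = 0.506). For both genes the ratio was larger in the male pair.

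Pcdh17 had the widest gap between the pairs. Its log2 level went from 11.56 to 11.82 in females and from 11.42 to 11.01 in males, so the mean ratio of -0.073 ± 0.47 describes neither (adjusted p = 0.952). Pcdh18, which is expressed in embryonic mesoderm, was nearly level, at 14.77 and 14.83 in the controls and 14.73 and 14.87 in the labelled knockouts. Its ratio was 0.00057 ± 0.059 (adjusted p = 0.998).

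Among the other protocadherins, Pcdh12, known from endothelium, was at 12.52 and 12.45 in the controls and at 12.63 and 12.64 in the labelled knockouts. The groups did not overlap, and the ratio was 0.15 ± 0.054 (adjusted p = 0.399), beside a median of 0.14 for the 8 endothelial markers. Pcdh20 had -0.14 in females and 0.46 in males (mean 0.16 ± 0.43, adjusted p = 0.787). Limma passed 0 of these 2 at an unadjusted p under 0.05.

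The classes were then set against each other within each array, as a description without a test. The median of the 15 tested classical cadherins was 0.13 (0.086 in females and 0.15 in males). It exceeded the median of the clustered protocadherins by 0.17 in females and by 0.23 in males, and that of the non-clustered protocadherins by 0.11 and 0.14. The non-clustered protocadherins in turn exceeded the clustered ones by 0.065 and 0.086. The order of the 3 classes was therefore the same in both pairs, with differences of at most 0.23 on the log2 scale. In the 13 alternatives the classical median stayed between 0.067 and 0.17 and the clustered median between -0.12 and -0.054.

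**Figure D4:**
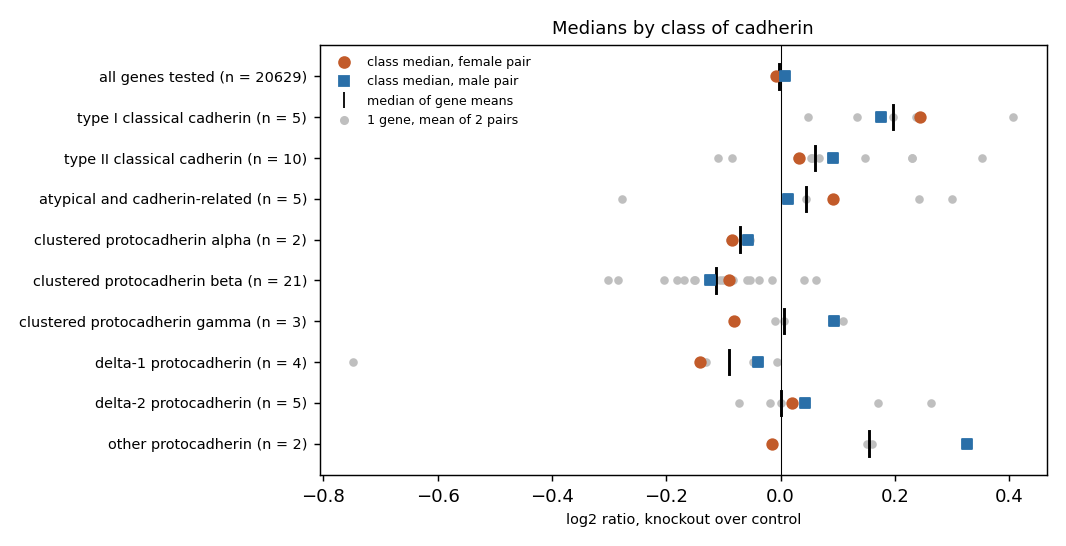
Median log2 ratio of labelled knockout over control (x axis) for each class of cadherin and for all 20629 tested genes, with circles for the female pair, squares for the male pair, bars for the median of the gene means and grey points for single genes. The type I classical cadherins lie at 0.20 and the beta protocadherins at -0.11, on either side of the all-gene median of -0.0021.

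Beyond the tested genes, 16 had no probe that passed the filter on dim signal. Among them 10 were not well above background in any of the 4 RNAs, and 6 were so in some. Their levels lay between 6.15 and 7.15 on the log2 scale. These are the type II genes Cdh7 and Cdh20, the atypical genes Cdh17, Cdh23, Cdhr1 and Cdhr3, the clustered genes Pcdha4, Pcdha9, Pcdha11, Pcdha12, Pcdhac1, Pcdhb1, Pcdhga10, Pcdhgb1 and Pcdhgc5, and Pcdh15. In 0 of the 73 genes was the signal well above background on both arrays of 1 group and on neither of the other.

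The proteins that work with cadherins were taken from lists chosen with earlier results of these data known. Among catenins and other partners at the adherens junction, 17 of 18 were tested, with 0 higher and 2 lower and a median of -0.079. The share called was 11.8% against 3.68% of all genes tested. The 2 that fell were Ctnna2 and Vcl. Ctnna2, the alpha-catenin of neurons, went from 11.94 to 11.23 in females and from 11.99 to 11.28 in males. Its log2 ratio was -0.71 ± 0.00014 (SD, n = 2 pairs, adjusted p = 0.00314), and its second probe gave -0.48, which also passed (adjusted p = 0.0126). An SD this small from 2 values says little of the true spread, since limma leans on the spread pooled across genes.

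Vcl, which encodes vinculin, the linker between junctions and actin that is abundant in smooth muscle, went from 14.35 to 13.85 and from 14.46 to 14.12. Its ratio was -0.42 ± 0.12 (adjusted p = 0.0364), while the second probe at -0.32 did not pass (adjusted p = 0.122). The call of Vcl was lost under 4 of 13 alternatives (adjusted p from 0.0152 to 0.225). The smooth muscle markers fell with it, and their part in it was not tested.

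Of the desmosome genes 7 of 11 were tested, with 0 called. Limma gave an unadjusted p under 0.05 for 1 higher and 1 lower, 28.6% of the 7 against 14.1% of all genes tested. The desmosome median was -0.033, which became 0.00097 in 1 alternative, median centring, where the median over all genes was 0.024. Perp, a membrane protein of desmosomes in stratified epithelia, was at 14.14 and 14.25 in the controls and at 13.83 and 13.88 in the labelled knockouts, a ratio of -0.34 ± 0.044 (adjusted p = 0.0512). The plakophilin gene Pkp1 had 0.25 ± 0.085 (adjusted p = 0.140).

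Among large cadherins and genes of planar polarity 13 of 14 were tested, with 1 higher, 0 lower and a median of -0.055. The share called was 7.69% against 3.68% of all genes tested. The gene that rose was Fat3, an atypical cadherin of the Fat family, which went from 8.33 to 8.93 in females and from 8.55 to 9.23 in males. Its ratio was 0.65 ± 0.060 (adjusted p = 0.00541), and its second probe also passed at 0.35 (adjusted p = 0.0431). Celsr3, a cadherin of planar polarity in neurons that crosses the membrane several times, had 0.34 ± 0.13 (adjusted p = 0.0708). The calsyntenin genes Clstn2 and Clstn3, named here after their values were seen, had -0.32 ± 0.053 and -0.33 ± 0.084 (adjusted p = 0.0655 and 0.0672). At an unadjusted p under 0.05, limma passed 2 genes of the list as higher and 4 as lower. These are 46.2% of the 13 tested, against 14.1% of all genes tested.

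The repressors of E-cadherin transcription, all 7 tested, had 0 called and a median of -0.074. Limma gave an unadjusted p under 0.05 for 0 higher and 2 lower, 28.6% of the 7 against 14.1% of all genes tested. Twist2 had -0.31 ± 0.20 (adjusted p = 0.152) and Twist1 -0.16 ± 0.0085 (adjusted p = 0.327). Of the genes for cadherin shedding and turnover 3 of 4 were tested, with 0 called and 0 at an unadjusted p under 0.05, and a median of -0.060. The sheddase gene Adam10 had -0.13 ± 0.014 (adjusted p = 0.459) and Hgs, which sorts endocytosed membrane proteins, -0.060 ± 0.14 (adjusted p = 0.896).

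**Figure D5:**
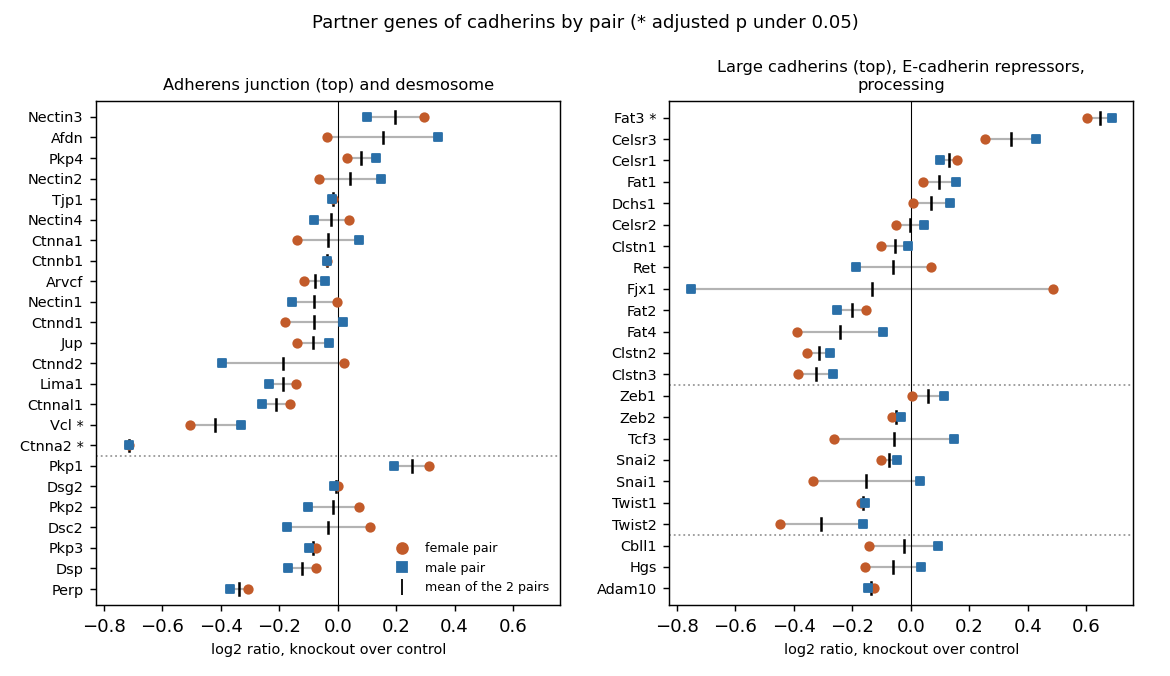
Log2 ratios of labelled knockout over control (x axis) of the tested partner genes of cadherins, with circles for the female pair, squares for the male pair and a bar for their mean; dotted lines part the lists. Ctnna2 at -0.71, Vcl at -0.42 and Fat3 at 0.65, all starred, passed the threshold.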

How the data were processed

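Per the submitters' processing notes, the scanner files were made with Agilent Feature Extraction 10.7.3.1. The deposited intensities (mean signal and median local background per spot, per the file headers) were corrected with normexp (offset 50). Loess was run array by array, with control and filler spots at weight 0. Each probe's 4 spots were then averaged, and non-uniform spots (186 and 223) were left out at that step. Log2 ratios were set to labelled knockout over control by the dyes in the labels. The other values deposited by the authors, signed fold changes per probe, were used after log2 as an alternative; they correlated with the processed signals at 0.982 and 0.984 (Pearson's r across 24839 probes, which are not independent). No source used here says how the authors computed them.

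Levels are log2 intensities of 1 probe after loess and quantile normalization of A-values across arrays, and are compared only within a probe. Probes were kept where over 0.5 of their spots were well above background on both arrays in the knockout or in the control channel, and the brightest probe stood for a gene. R 4.3.3 and limma 3.58.1 (lmFit, eBayes; 1 residual degree of freedom, prior 5.24) tested 20629 genes with Benjamini-Hochberg adjustment, at an adjusted p under 0.05. The procedure was tested on simulated data. Errors are SDs over the 2 pairs, and 2 arrays limit the precision.

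Accessions were named through a RefSeq table (GRCm38.p6), which holds 97 symbols of the form searched, 73 of them with a probe. No source used here names the build of the array design. Named genes were those past the threshold, up to 3 per class with the largest ratio, a preset list of cadherins, genes whose probes disagreed or with 1 called probe, and per partner list those past the threshold and the 2 largest. The members and lists were chosen with earlier results of these data known. Alternatives were other background, spot, normalization, filter, probe and variance settings, the deposited values, and each array left out.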

Additional observations from a re-analysis of the deposited data

Results flagged for a closer look

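In 14 of the 57 tested cadherin genes the log2 ratio was on opposite sides of 0 in the 2 pairs, against 9123 of 20629 genes in all. With 1 pair of each sex and dye orientation, none of these differences was tested. The male minus the female ratio was -0.67 for Pcdh17, 0.61 for Pcdh20, -0.43 for Pcdhb7, 0.36 for Pcdhga9, 0.27 for Pcdhb13 and 0.24 for Cdh10. It was 0.18 for Pcdhga5, 0.17 for Pcdhb14, 0.15 for Cdh8, -0.14 for Cdh26, -0.12 for Pcdhb5, 0.084 for Pcdh18, -0.048 for Pcdh8 and 0.032 for Pcdh1.

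Some medians differed in sign between the pairs as well. The male minus the female median was 0.034 over the tested cadherins, 0.032 for the non-clustered protocadherins, 0.18 for the gamma protocadherins and 0.34 for the other protocadherins. Among the partner lists it was -0.10 for desmosome genes, -0.015 for large cadherins and planar polarity, and 0.18 for cadherin processing and turnover.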

How the results depend on the processing

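Calls over all genes moved from 385 higher and 374 lower to 249 and 214 with the processed signals, 114 and 128 with median centring and 142 and 143 with the deposited values. The number of cadherin genes higher was 0 in those 3 settings and with the mean over probes, and 2 with no filter on dim probes. The number lower was 2 with the median of pixels and with no filter, and 0 with the deposited values. Partner genes lower numbered 1 with the processed signals, median centring and the deposited values, 5 with no filter and 4 with an intensity trend, and partner genes higher 2 with the median of pixels, no filter or each probe by itself. The clustered protocadherin median was -0.11 with the processed signals, -0.077 with median centring, -0.12 with the deposited values and -0.054 with no filter, and ranged from -0.087 to -0.076 with 1 array left out. The classical median was 0.067 with no filter and 0.086 to 0.15 with 1 array left out, and the non-clustered one 0.027 with median centring. The median over all genes was -0.0021 in the main setting and 0.024 with median centring. The cause of these shifts was not tested. Leaving out an array leaves 0 residual degrees of freedom, so it gives values and no test. Ctnna2 and Fat3 kept their calls in 13 of 13 alternatives; Cdh2 and Vcl lost theirs with the processed signals, median centring, the deposited values and the mean over probes. Pcdhb10 passed with the median of pixels and with no filter, and Cdh9 with no filter. Of ratios that missed the threshold, Pcdhga1 became 0.19 and Pcdh11x -0.091 with the processed signals (0.19 and -0.11 with the deposited values), Cdh1 0.095 and Pcdh17 -0.038 with median centring, and Pcdhac2 -0.011 and Pcdh7 -0.050 with the mean over probes. Each ratio already pairs a labelled knockout with a control on 1 array, so the tests reported are paired. Signal over background limits what can be said of the 16 dim genes.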
